A study of Mus musculus with 15 samples.

Results

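Integrins are the receptors by which macrophages hold on to matrix, to other cells and to particles, and 10 integrin genes were followed here in MH-S cells, a mouse alveolar macrophage line transformed with SV-40. The members are the rows of the count table whose Ensembl identifiers map to *Itgal*, *Itgam*, *Itga4*, *Itga5*, *Itga6*, *Itgav*, *Itgb1*, *Itgb2*, *Itgb5* and *Itgb7*. They are 10 of the 78317 gene identifiers in the table, each matched by 1 identifier, and all 10 passed the filter on low counts. The cells were kept for 24 h in 1 of 5 conditions with 3 wells each, and each well gave 1 RNA library. The M0 wells received medium alone, the M1 wells LPS at 1 µg/mL with IFN-γ at 20 ng/mL, and the M2 wells IL-4 at 20 ng/mL. The remaining wells received calcium phosphate microrods (CaP) or silica microrods (SiO2) at 0.1 mg/mL. Each of the microrod wells was given its own particle batch, while all wells came from the same cell passage, so the p-values cover the spread between wells and particle batches and not between passages.

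An integrin is a pair of an α and a β subunit that crosses the membrane, binds a ligand outside and couples to the actin cytoskeleton through talin and kindlin inside. *Itgb2* encodes the β2 chain found on leukocytes, which pairs with αL (*Itgal*) in LFA-1, a receptor for ICAM molecules, and with αM (*Itgam*) in Mac-1, a receptor for complement-coated particles and fibrinogen. *Itgb1* encodes β1, the partner of α4 and α5 (*Itga4*, *Itga5*), which bind fibronectin, and of α6 (*Itga6*), which binds laminin. α4 also pairs with β7 (*Itgb7*), while αv (*Itgav*) with β5 (*Itgb5*) binds vitronectin and takes part in the uptake of dying cells.

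RefSeq promoter sequences were matched for 7 of the 10 members, namely *Itga4*, *Itga5*, *Itgam*, *Itgav*, *Itgb1*, *Itgb5* and *Itgb7*. Those of *Itga5*, *Itgb5* and *Itga4* are shown as examples of members called in the polarized cells described below, where others were called too. Each is the 250 bases before the RefSeq start site on GRCm38.p6, read 5′ to 3′ on the strand of the gene, with matches to the searched motifs in capitals. The RefSeq start site of *Itga5* lies outside the transcripts of this gene in the GENCODE M21 annotation.
Itga5 promoter, chr15:103366792-103367041, minus strand: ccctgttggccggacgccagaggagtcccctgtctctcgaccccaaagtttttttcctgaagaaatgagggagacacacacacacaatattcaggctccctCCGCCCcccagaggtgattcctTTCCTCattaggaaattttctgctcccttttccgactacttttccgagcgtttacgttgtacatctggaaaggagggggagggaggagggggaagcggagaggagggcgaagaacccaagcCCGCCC
Itgb5 promoter, chr16:33829415-33829664, plus strand: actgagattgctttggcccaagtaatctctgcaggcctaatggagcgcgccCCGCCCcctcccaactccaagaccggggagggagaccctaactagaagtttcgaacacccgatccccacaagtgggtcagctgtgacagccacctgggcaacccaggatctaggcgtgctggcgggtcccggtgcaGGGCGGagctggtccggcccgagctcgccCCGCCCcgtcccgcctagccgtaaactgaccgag
Itga4 promoter, chr2:79255176-79255425, plus strand: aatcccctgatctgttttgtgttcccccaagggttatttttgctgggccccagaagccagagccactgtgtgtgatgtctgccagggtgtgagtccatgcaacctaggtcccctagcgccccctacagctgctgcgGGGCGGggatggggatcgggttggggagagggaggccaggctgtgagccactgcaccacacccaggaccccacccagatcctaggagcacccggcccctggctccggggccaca

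On both strands 4 motifs were searched in these windows. The GC box of Sp1 (GGGCGG) was present in 5 of the 7 members, including 3 copies for *Itgb5* and 2 for *Itga5*, against 32.7% of the 32841 promoters of this length. The core of the myeloid factor PU.1 (GAGGAA) was found in 4 of the 7, namely *Itga5*, *Itgam*, *Itgav* and *Itgb1*, against 23.3% of all promoters. The STAT site TTCNNNGAA (7.02% of all promoters) and the AP-1 site TGANTCA (6.75%) were not found in any of the 7 windows. No matches overlapped each other there, and the window of *Itgb7* held none.

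The 15 libraries held between 8459643 counts (M0 replicate 3) and 68750050 counts (M2 replicate 3), and the lowest count of any member was 23 (*Itgal* with SiO2). On the second principal component of the libraries, M0 replicate 3, M2 replicate 2 and SiO2 replicate 2 lay apart from the rest. Of 12 macrophage markers 8 were tested, with *Cd68* at 979 and *Lyz2* at 1847 CPM in M0, where CPM are read counts scaled to a common library size by the TMM method. *Siglecf*, *Car4*, *Mertk* and *Pparg*, marks of tissue alveolar macrophages among other uses, were at or near 0 in M0 and M1 (0 to 0.482 CPM) and did not pass the filter. The summed level of the 12 markers was 2752 to 3718 CPM in M0, 3338 to 3515 in M1, 1667 to 2288 in M2, 2770 to 3185 with CaP and 2983 to 3328 with SiO2 microrods. Markers of epithelium, fibroblasts, lymphocytes and neutrophils summed to at most 1.71 CPM in any library and none passed the filter. Of the endothelial markers 1 of 4 passed, and their sum was 0.342 to 0.579 CPM in M0 against 1.03 to 1.57 with CaP and 1.47 to 1.62 with SiO2 microrods, a shift whose part in the results was not tested. In bulk RNA, fewer cells that express a gene and less RNA per cell cannot be told apart.

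Per kilobase of summed exon, *Itgb2* had the highest mean in all 5 groups, followed by *Itgb7*. In M0 the levels were 21.2 ± 5.09 CPM per kb for *Itgb2*, 14.8 ± 1.79 for *Itgb7*, 10.1 ± 1.06 for *Itgb1* and 4.90 ± 0.238 for *Itgb5* (SD, n = 3). Among the α subunits *Itgam* led with 6.60 ± 0.933 CPM per kb, then *Itga6* with 4.17 ± 1.20 and *Itga5* with 3.26 ± 0.809. *Itgav*, *Itga4* and *Itgal* were lowest in M0, with 1.06 ± 0.222, 0.920 ± 0.149 and 0.684 ± 0.110 CPM per kb. In M0 the ranges of *Itgb2* and *Itgb7*, of *Itga6* with *Itgb5* and *Itga5*, and of *Itga4* with *Itgav* and *Itgal* overlapped. Within each M0 library *Itgb2* lay above *Itgb7*, and *Itgav* above *Itgal*. The order of *Itga6* with *Itgb5* and *Itga5*, and of *Itga4* with *Itgav* and *Itgal*, differed between the libraries and is not settled. With the length of the longest transcript *Itga6* was at 8.74 CPM per kb and thereby above *Itgam*, which was at 7.08, so its place among the α subunits depends on the length used.

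**Figure D1:**
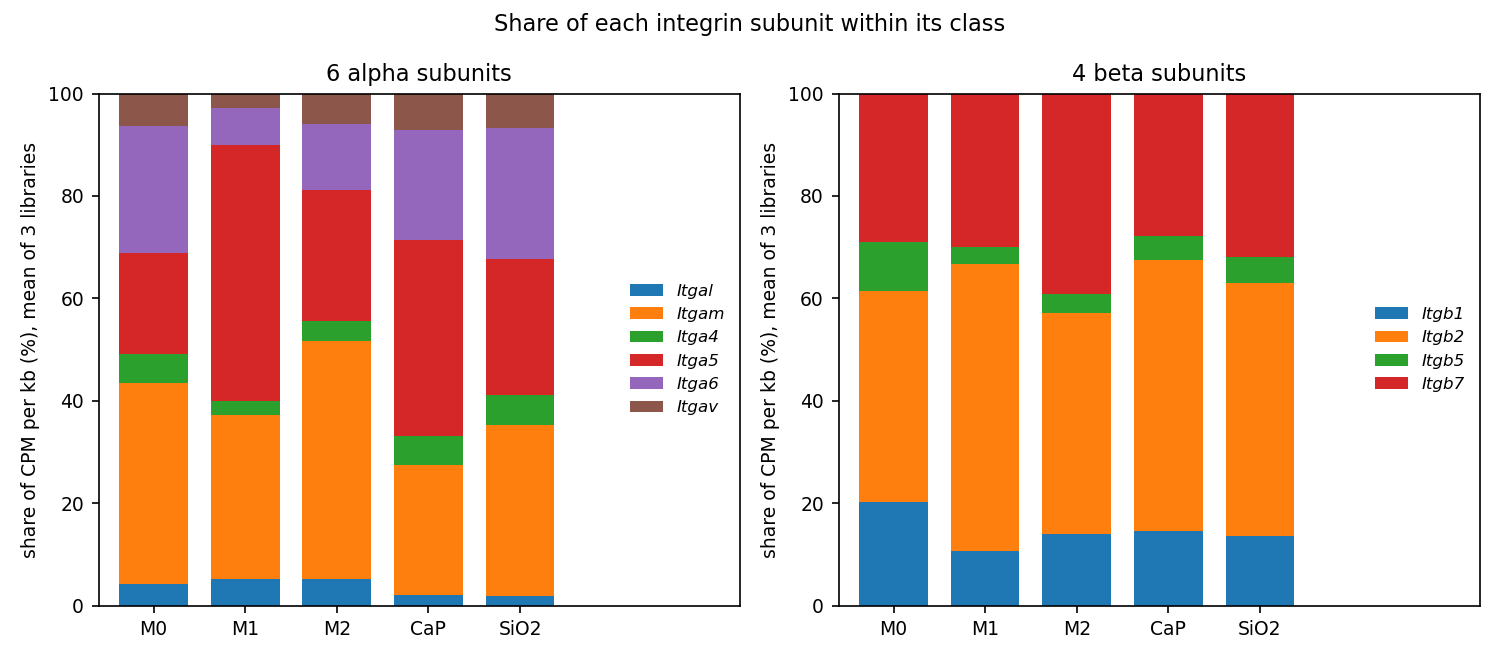
Stacked bars give the share of each gene in the summed CPM per kb of the 6 α subunits (left) and of the 4 β subunits (right), in percent, as the mean over the 3 libraries of each group. *Itgam* takes the largest α share in M0 (39.4%), M2 (46.6%) and SiO2 (33.4%), and *Itga5* in M1 (49.9%) and CaP (38.2%).

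Within the α subunits *Itgam* held 39.4 ± 2.22% of the summed level per kb in M0 and *Itga5* 19.9 ± 6.33%. In M1 *Itga5* held 49.9 ± 8.97% and *Itgam* 32.1 ± 7.02%, with *Itga5* ahead in 2 of the 3 libraries and the shares at 39.6% and 40.2% in M1 replicate 1. *Itga6* held 24.7 ± 5.07% in M0, 7.25 ± 1.10% in M1 and 12.8 ± 1.42% in M2. In the CaP group *Itga5* held 38.2 ± 9.06% and *Itgam* 25.5 ± 6.84%. These overlapped, since *Itgam* held 32.9% and *Itga5* 28.7% in CaP replicate 1. M1 replicate 1 and CaP replicate 1 each had the lowest level of GC-rich relative to GC-poor genes in their group. The part of GC content in the shares was not tested. Among the β subunits *Itgb2* held the most in each group by its mean, from 41.1 ± 5.29% in M0 to 56.0 ± 1.67% in M1, although *Itgb7* held more in M2 replicate 2 (38.5 against 35.0%) and M2 replicate 3 (45.7 against 41.4%). *Itgb5* held 9.66 ± 0.779% in M0 and between 3.17 and 5.13% on average in the other groups.

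**Figure D2:**
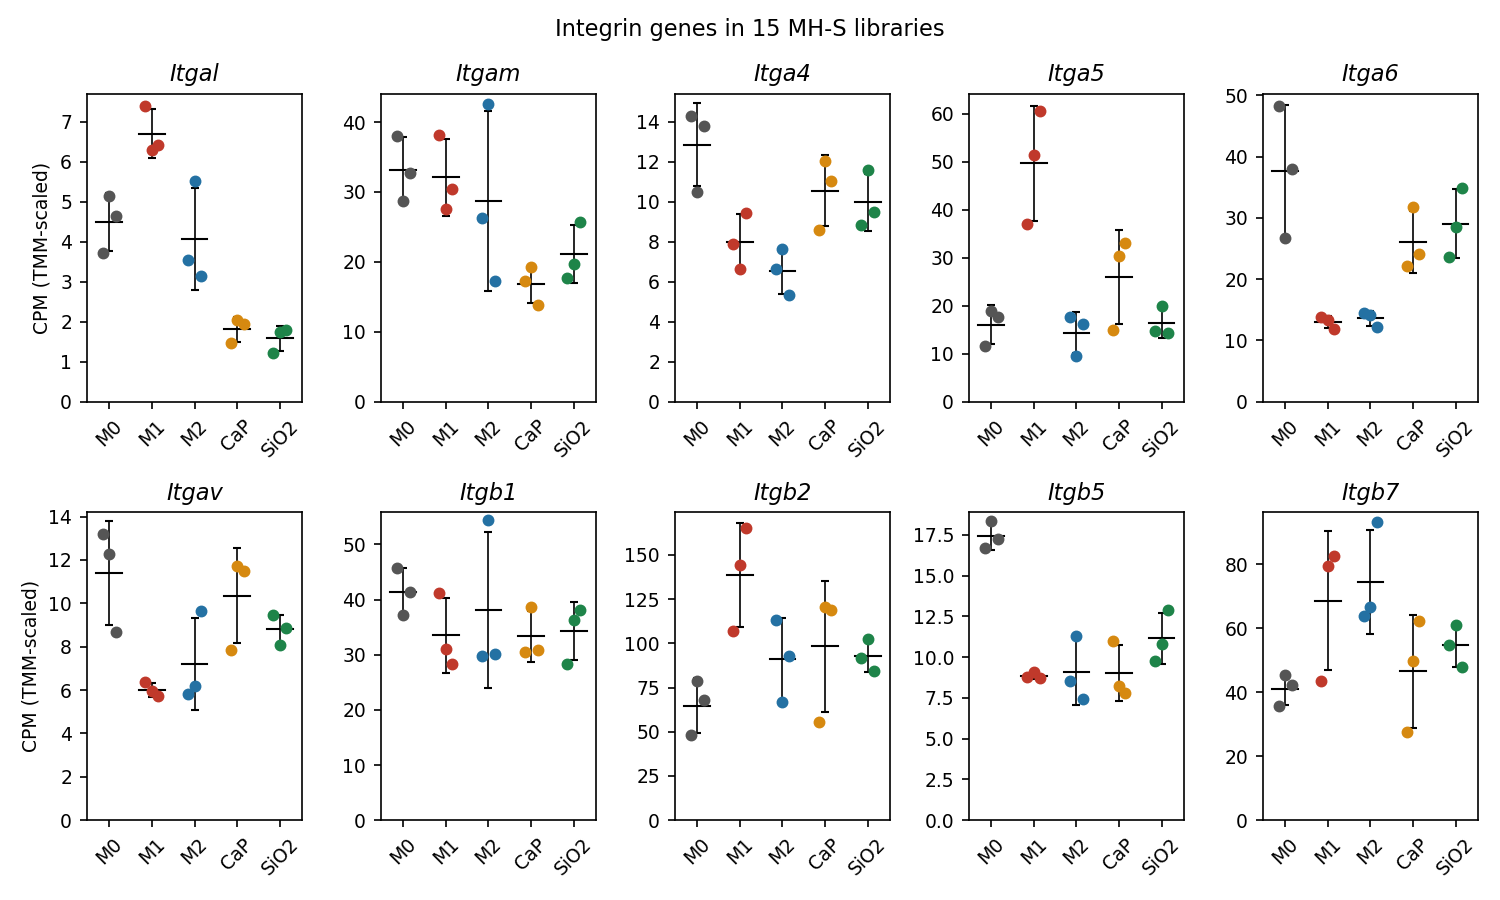
Points give the level of each member in each of the 15 libraries in CPM, on a linear axis from 0, with the mean (line) and the SD (bars) of the 3 libraries per group. *Itga5* is highest in the 3 M1 libraries, *Itga6* is lowest in M1 and M2, *Itgb5* is highest in M0, and *Itgal* is lowest in the 6 libraries with microrods.

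The comparison of M1 with M0 asks how the classical activation by LPS and IFN-γ changes these receptors. *Itga5* and *Itgb2* rose, and *Itga6*, *Itgav* and *Itgb5* fell, so that 5 of the 10 members changed. A gene was called where its adjusted p was under 0.05 and its log2 fold change exceeded 0.5 in size, and by this rule 14.1% of the 16654 genes tested changed between M1 and M0 (9.7% higher and 4.37% lower). The members had a median log2 fold change of -0.18 and all genes one of -0.01, and 7 of the 10 members did not overlap between the 2 groups, as 32.2% of all genes did not.

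*Itga5*, the α chain of the fibronectin receptor, was at 11.5, 19.0 and 17.7 CPM in the M0 libraries and at 37.0, 51.4 and 60.6 CPM in the M1 libraries. It was at 17.6, 9.48 and 16.1 CPM in M2, at 14.8, 30.3 and 33.0 CPM with CaP and at 14.8, 20.0 and 14.4 CPM with SiO2 microrods. The M1 libraries thus lay above all 12 others, and the other groups overlapped each other. The rise in M1 was 3.12-fold, a log2 fold change of 1.64 (SE 0.33, adjusted p = 0.00426 in edgeR's quasi-likelihood test), and stayed between 1.41 and 1.81 when each library was left out in turn.

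*Itgb2*, the common chain of LFA-1 and Mac-1, was at 47.9, 78.5 and 67.9 CPM in M0 and at 107, 144 and 165 CPM in M1. Its levels were 113, 66.7 and 93.1 CPM in M2, 55.3, 121 and 119 CPM with CaP and 91.4, 102 and 84.3 CPM with SiO2 microrods. The M1 libraries did not overlap M0, those of M2 and CaP overlapped both, and those of SiO2 lay between M0 and M1. It rose in M1 by a log2 fold change of 1.10 (SE 0.30, adjusted p = 0.0241 by edgeR). The call was lost without M0 replicate 1 (adjusted p = 0.107), M0 replicate 3 (0.0553), M1 replicate 2 (0.0726) or M1 replicate 3 (0.0980). *Itga5* and *Itgb2* were lowest, in each of the 5 groups, in the library of that group with the lowest level of GC-rich relative to GC-poor genes, and *Itgb7* was so in 4 groups. With an offset for GC content both were still called in M1, with log2 fold changes of 1.43 (adjusted p = 0.00175) and 0.97 (adjusted p = 0.0306).

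*Itga6*, the laminin-binding α6 chain, fell most of the members in M1. It was at 48.3, 26.7 and 38.0 CPM in M0, at 13.8, 13.3 and 11.9 CPM in M1 and at 14.5, 14.1 and 12.2 CPM in M2. With CaP microrods it was at 22.2, 31.8 and 24.2 CPM and with SiO2 microrods at 23.7, 28.5 and 34.9 CPM. The 6 polarized libraries all lay below the 9 others, and M1 and M2 overlapped. In log2 terms the change was -1.54 in M1 (SE 0.23, adjusted p = 5.71e-04 by edgeR) and -1.48 in M2 (SE 0.23, adjusted p = 0.00224), 2 comparisons that share the M0 libraries. Both calls held in every setting tried.

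*Itgb5*, the β chain that pairs with αv, was at 16.7, 18.3 and 17.3 CPM in M0 and thereby above all 12 other libraries. It was at 8.77, 9.09 and 8.75 CPM in M1, 8.53, 11.3 and 7.43 CPM in M2, 10.99, 8.22 and 7.82 CPM with CaP and 9.79, 10.8 and 12.9 CPM with SiO2 microrods. These 4 groups overlapped with their neighbours in the order of the means. On the log2 scale it changed by -0.97 in M1 (SE 0.20, adjusted p = 0.00528 by edgeR) and -0.97 in M2 (SE 0.20, adjusted p = 0.0135). The call in M2 was lost without M2 replicate 1 (adjusted p = 0.0573), without M2 replicate 3 (0.0867) and without a filter on low counts (0.0834).

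*Itgav*, the αv chain, was at 13.2, 12.3 and 8.69 CPM in M0 and at 6.36, 5.95 and 5.73 CPM in M1, a log2 fold change of -0.94 (SE 0.25, adjusted p = 0.0220 by edgeR). The 2 groups did not overlap. It was at 5.80, 6.19 and 9.65 CPM in M2, at 7.83, 11.7 and 11.5 CPM with CaP and at 9.45, 8.09 and 8.88 CPM with SiO2 microrods, and all of these groups overlapped M0. The call in M1 was lost without M0 replicate 1 (adjusted p = 0.0805), M0 replicate 2 (0.0605), M1 replicate 2 (0.0774) or M1 replicate 3 (0.0774) and without a filter on low counts (0.0536).

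The 5 other members did not pass the test between M1 and M0. *Itga4* had a log2 fold change of -0.69 (SE 0.22, adjusted p = 0.0513 by edgeR) with groups that did not overlap. The labels do not say what a replicate number shares, and a pairing of M0 with M1 was read from these same counts. With this number as a block in the M0 and M1 libraries alone, a fit added after seeing the data, *Itga4* was called (-0.74, adjusted p = 0.0459). It was also called with DESeq2 (adjusted p = 0.0151), with the size factors of DESeq2 (0.0402), with 10 counts in every library (0.0312) and without M0 replicate 2 (0.0410), and was not called in the other settings (0.0532 to 0.230). *Itgb7* had 0.74 (SE 0.30, adjusted p = 0.114) and *Itgal* 0.60 (SE 0.25, adjusted p = 0.131). *Itgb1*, the most widely shared β chain, had -0.31 (SE 0.24) and *Itgam* -0.05 (SE 0.28).

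**Figure D3:**
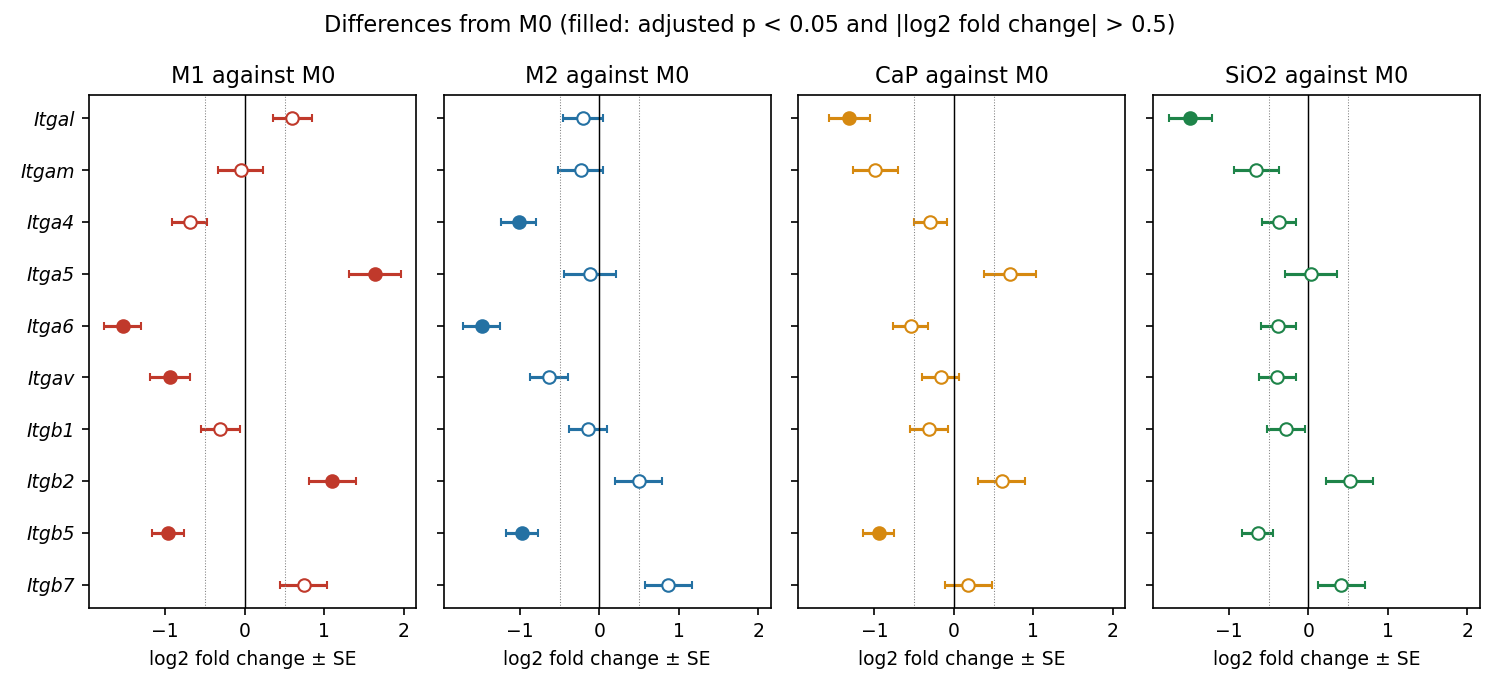
Points give the log2 fold change of each member against M0 with its SE by edgeR, in 1 panel per group, with dotted lines at the threshold of 0.5 in either direction and filled points for called differences. Filled points number 5 in M1, 3 in M2, 2 with CaP and 1 with SiO2 microrods, and all panels share the M0 libraries.

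The comparison of M2 with M0 asks the same of the alternative activation by IL-4. *Itga6*, *Itgb5* and *Itga4* fell and no member rose, so that 3 of 10 members changed, against 4.13% of all genes tested (2.13% lower and 2% higher). The members had a median log2 fold change of -0.22 and all genes one of 0.07, and 4 members did not overlap between M2 and M0, as 15.2% of all genes did not. *Itga4*, the α4 chain shared by the β1 and β7 integrins, was at 14.3, 10.5 and 13.8 CPM in M0 and at 6.62, 7.63 and 5.35 CPM in M2. It was at 7.91, 6.63 and 9.43 CPM in M1, at 8.59, 12.0 and 11.04 CPM with CaP and at 8.86, 11.6 and 9.47 CPM with SiO2 microrods. All M2 and M1 libraries lay below the 3 of M0, and the microrod groups overlapped M0. Its log2 fold change in M2 was -1.02 (SE 0.22, adjusted p = 0.0194 by edgeR). This call was lost without M0 replicate 1 (adjusted p = 0.0798), M0 replicate 3 (0.0651), M2 replicate 1 (0.0559) or M2 replicate 3 (0.113), without a filter (0.0738) and with the GC offset (0.0841).

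*Itgb7*, the other β partner of α4, was at 35.6, 45.3 and 42.2 CPM in M0 and at 63.7, 66.6 and 93.1 CPM in M2. Its levels were 43.7, 79.6 and 82.7 CPM in M1, 27.5, 49.8 and 62.3 CPM with CaP and 54.9, 61.2 and 47.8 CPM with SiO2 microrods. The M2 libraries lay above M0, with a log2 fold change of 0.87 (SE 0.30, adjusted p = 0.131 by edgeR), which did not pass the test. Without a filter on low counts it was called (adjusted p = 0.0335).

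The comparisons of the microrods with M0 ask what the particles do to cells that are not polarized. With CaP microrods *Itgal* and *Itgb5* fell, 2 of 10 members against 0.654% of all genes tested (0.426% higher and 0.228% lower). With SiO2 microrods *Itgal* fell, 1 of 10 members against 0.264% of all genes tested (0.222% higher and 0.042% lower). The median log2 fold change of the members was -0.31 with CaP and -0.38 with SiO2, beside 0.06 and -0.02 over all genes, and 3 and 5 members did not overlap with M0, against 17.4% and 18% of all genes. Both comparisons use the same M0 libraries.

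*Itgal*, the αL chain of LFA-1, was at 3.71, 5.14 and 4.63 CPM in M0. It was at 1.46, 2.04 and 1.94 CPM with CaP and at 1.22, 1.74 and 1.78 CPM with SiO2 microrods, on 23 to 78 counts per library. In M1 it was at 7.39, 6.29 and 6.41 CPM and in M2 at 3.55, 5.53 and 3.13 CPM. All 6 microrod libraries lay below the 9 others, and the 2 rod types overlapped. The log2 fold change was -1.31 with CaP (SE 0.26, adjusted p = 0.0402 by edgeR) and -1.48 with SiO2 microrods (SE 0.27, adjusted p = 0.0447). Without any 1 of the libraries compared neither call held, with log2 fold changes of -1.49 to -1.17 (adjusted p 0.0702 to 0.142) for CaP and -1.64 to -1.32 (adjusted p 0.120 to 0.285) for SiO2. In the 9 M0, CaP and SiO2 libraries alone the adjusted p was 0.0689 for CaP and 0.112 for SiO2, with log2 fold changes of -1.31 and -1.48. Across 10 settings other than leaving out 1 library, the call held in 4 for CaP and in 6 for SiO2. DESeq2 was among those that kept the call for both.

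*Itgb5*, whose values stand above, had a log2 fold change of -0.94 with CaP (SE 0.19, adjusted p = 0.0450 by edgeR) and of -0.64 with SiO2 microrods (SE 0.19, adjusted p = 0.318), and neither group overlapped M0. When each of the 6 libraries was left out, the call with CaP held without CaP replicate 1 (adjusted p = 0.0245) and was lost in the 5 other fits (0.0743 to 0.225). Across 10 settings other than leaving out 1 library, this call held in 4, DESeq2 among them. *Itgam*, the αM chain of Mac-1, was at 38.0, 28.7 and 32.8 CPM in M0, at 17.3, 19.3 and 13.9 CPM with CaP and at 17.8, 19.7 and 25.8 CPM with SiO2 microrods. The levels in M1 were 38.2, 27.6 and 30.4 CPM and those in M2 26.3, 42.6 and 17.3 CPM. Both microrod groups lay below M0 without overlap, with log2 fold changes of -0.99 (SE 0.28, adjusted p = 0.131 by edgeR) and -0.65 (SE 0.28, adjusted p = 0.561) that did not pass the test. DESeq2 called *Itgam* with CaP (adjusted p = 0.0405), as did edgeR without a filter (0.0369). In 4 of the 5 groups, all but CaP, *Itgam* was highest in the library of the group with the lowest level of GC-rich relative to GC-poor genes. With the GC offset its log2 fold changes were -1.09 (adjusted p = 0.172) and -0.69 (adjusted p = 0.799).

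The values of the β2 chain lay in the other direction in the microrod groups. *Itgb2* had a log2 fold change of 0.60 with CaP (SE 0.29, adjusted p = 0.341 by edgeR) and of 0.52 with SiO2 microrods (SE 0.30, adjusted p = 0.702), and neither passed the test. The level of *Itgb2* per kb was 1.93 to 3.96 times the summed level per kb of *Itgal* and *Itgam* in the M0 libraries, 4.94 to 12.7 times with CaP and 5.12 to 8.05 times with SiO2 microrods. It was 4.02 to 7.70 times in M1 and 2.34 to 7.79 times in M2, so that M0 overlapped M2 alone. In each group this ratio was lowest in the library with the lowest level of GC-rich relative to GC-poor genes. That level was, in log2, -0.44 to 0.03 in M0, -0.43 to 0.08 in M1 and -0.16 to 0.34 in M2. With CaP it was -0.01 to 0.29 and with SiO2 microrods -0.01 to 0.08. The part of GC content in the ratio was not tested. The ratio of *Itgal* to *Itgam* per kb was 0.0747 to 0.137 in M0, 0.0643 to 0.107 with CaP, 0.0527 to 0.0674 with SiO2 microrods, 0.148 to 0.174 in M1 and 0.0991 to 0.139 in M2. The sum of *Itgal* and *Itgam* leaves out *Itgax*, another α partner of β2, whose levels stand below. These ratios are given as a description and were not tested.

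*Itgb1*, the β chain of the fibronectin and laminin receptors, was the member with the smallest range of group means. It was at 45.8, 37.1 and 41.4 CPM in M0, at 41.3, 31.0 and 28.3 CPM in M1 and at 29.8, 54.4 and 30.1 CPM in M2. With CaP microrods it was at 30.5, 38.7 and 30.9 CPM and with SiO2 microrods at 28.3, 36.4 and 38.1 CPM. Neighbouring groups overlapped throughout, and its changes against M0 lay, in log2, between -0.32 and -0.14.

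Across all 5 groups in 1 F test, *Itgal* (adjusted p = 2.09e-04), *Itga6* (7.21e-04), *Itga5* (0.00356), *Itgb5* (0.00721) and *Itga4* (0.0341) differed, 5 of 10 members against 16.4% of all genes tested with edgeR. *Itgav* (0.0778), *Itgam* (0.0849), *Itgb2* (0.135), *Itgb7* (0.178) and *Itgb1* (0.745) did not pass. For *Itgal* the order of the means ran from M1 through M0, M2 and CaP to SiO2, where M0 and M2 overlapped and CaP and SiO2 overlapped. For *Itga5* M1 stood above CaP, SiO2, M0 and M2, which overlapped as neighbours. The call for *Itga4* was lost in 7 of 15 fits that left out 1 library (adjusted p 0.0504 to 0.0999, without M0 replicate 1 or 3, M1 replicate 1 or 2, M2 replicate 1 or 3, or CaP replicate 3). Across 9 settings other than leaving out 1 library it held in 5 (adjusted p up to 0.149). It was lost without a filter, with the replicate block, with the GC offset and with 3 libraries left out together.

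The microrods were given at the same mass per volume for the same time, and differ in the material, calcium phosphate or silica. Per the study the rods differ in density, so that equal mass can hold unequal numbers of rods, and material and rod number cannot be told apart here. Between CaP and SiO2 microrods 0 of 10 members were called by edgeR, against 0.018% of all genes tested. With an unadjusted p below 0.05 there were 0 members and 277 of the 16654 genes, and DESeq2 called 0 members and 0.102% of all genes. The largest difference was that of *Itga5*, with a log2 fold change of 0.67 (CaP over SiO2, 95% interval -0.02 to 1.36), whose libraries overlapped. The interval was -0.43 to 0.77 for *Itgal*, -0.94 to 0.27 for *Itgam*, -0.55 to 0.71 for *Itgb2* and -0.72 to 0.11 for *Itgb5*. The data therefore leave room for differences in either direction in these genes.

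Between M1 and M2 *Itga5* and *Itgal* were higher in M1, 2 of 10 members against 16.1% of all genes tested (10.6% higher and 5.46% lower in M1). *Itga5* had a log2 fold change of 1.76 (SE 0.33, adjusted p = 0.00213 by edgeR) and *Itgal* one of 0.81 (SE 0.25, adjusted p = 0.0427). The call for *Itgal* held without M2 replicate 2 (0.0123) and was lost without any of the other 5 libraries, where the log2 fold change went down to 0.60 (adjusted p = 0.227, without M2 replicate 3). *Itga6*, which fell in both, had a difference of -0.06 (SE 0.24) on the log2 scale.

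Of 17 further integrin subunit genes 4 passed the filter, *Itga7*, *Itga8*, *Itgax* and *Itgb4*. With either microrod 0 of these 4 were called, beside 0.654% of all genes with CaP and 0.264% with SiO2. Their median log2 fold change was 0.84 with CaP and 0.83 with SiO2, with 3 of the 4 higher in each. With CaP 4 and with SiO2 2 of them did not overlap M0, against 17.4% and 18% of all genes. *Itgb4* was at 0 to 0.237 CPM in M0, 0.472 to 0.947 with CaP and 0.605 to 1.03 with SiO2. It was named after its values were seen. *Itga8*, an α partner of β1, was at 8.24, 7.42 and 11.7 CPM in M0, 2.92, 1.91 and 1.94 CPM in M1, 3.62, 4.47 and 2.23 CPM in M2, 5.84, 7.10 and 5.43 CPM with CaP and 6.22, 8.09 and 7.85 CPM with SiO2 microrods. It fell in M1 (log2 fold change -1.99, SE 0.30, adjusted p = 5.62e-04 by edgeR) and in M2 (-1.50, SE 0.28, adjusted p = 0.00803, and 0.0585 without M2 replicate 3). *Itga7*, a laminin-binding α chain named here after its values were seen, rose in M1 from 0.502 to 3.25 CPM (log2 fold change 2.35, adjusted p = 4.16e-04). *Itgax*, the αX partner of β2, was at 2.05, 2.47 and 3.01 CPM in M0 and at 1.63, 1.57 and 1.65 CPM in M1. It was at 3.68, 3.16 and 3.72 CPM in M2. With CaP microrods it was at 3.38, 4.93 and 4.49 CPM and with SiO2 microrods at 2.45, 3.56 and 4.68 CPM. Its mean was 2.51 CPM in M0 and 4.27 CPM with CaP microrods (log2 fold change 0.80, SE 0.26, adjusted p = 0.167).

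**Figure D4:**
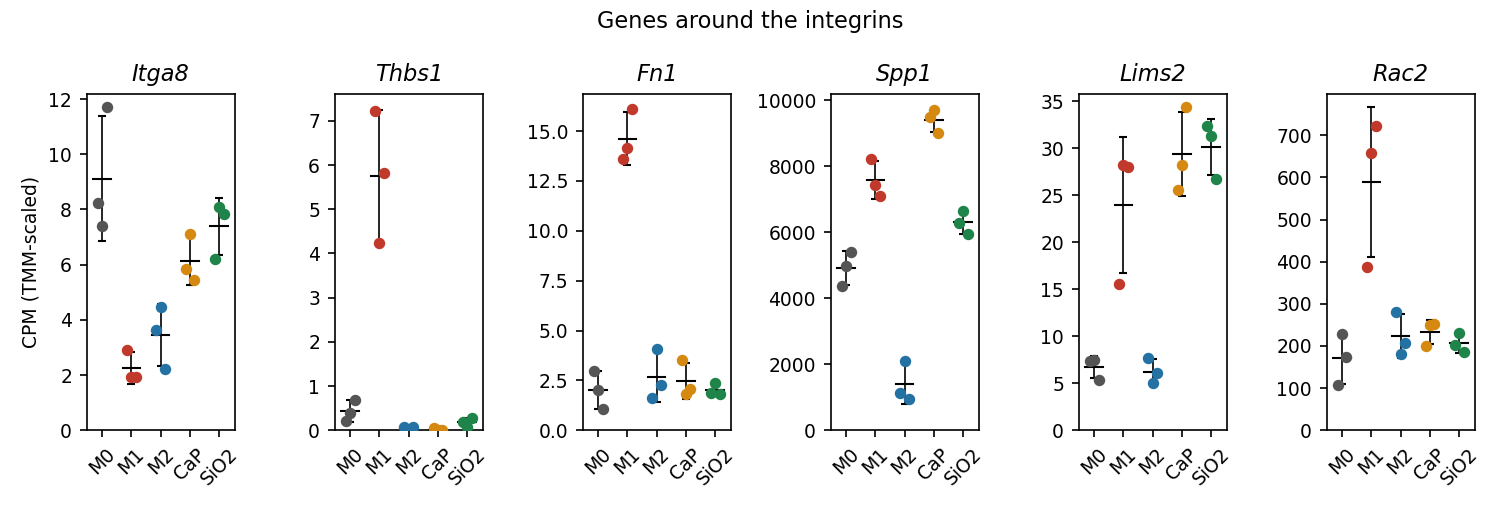
Points give the level of *Itga8*, of the ligands *Thbs1*, *Fn1* and *Spp1* and of the signalling genes *Lims2* and *Rac2* in each library in CPM, with the mean (line) and SD (bars) of the 3 libraries per group. *Fn1* and *Thbs1* are highest in the 3 M1 libraries, *Lims2* is high in M1 and with both microrods, and *Spp1* is lowest in M2.

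Of 30 genes of integrin ligands 13 were tested, and 4 rose and 1 fell in M1, beside 9.7% and 4.37% of all genes. Their median log2 fold change was 0.60. *Fn1*, encoding the fibronectin that α5β1 and α4β1 bind, was at 2.98, 2.02 and 1.04 CPM in M0 and 13.6, 14.2 and 16.1 CPM in M1, without overlap (log2 fold change 2.71, SE 0.35, adjusted p = 1.31e-04 by edgeR). *Thbs1* (thrombospondin-1) rose from 0.432 to 5.76 CPM (log2 fold change 4.06, SE 0.41, adjusted p = 1.21e-06), and *Lamc1*, a laminin chain, from 25.1 to 38.2 CPM (0.60, SE 0.17, adjusted p = 0.0291, a call lost in all 6 fits without 1 library). *Edil3* rose from 1.54 to 3.67 CPM, and *Jam3* was called lower with at most 1 count in an M1 library, both named after their values were seen. The 5 calls among the ligands became 4 without M0 replicate 1, 3 without M0 replicate 2, M0 replicate 3 or M1 replicate 1, and 2 without M1 replicate 2 or M1 replicate 3.

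In M2 2 ligand genes fell and 0 rose among the 13, beside 2.13% and 2% of all genes. *Spp1* (osteopontin), a ligand of αv and α4 integrins and by far the most abundant of the ligands, was at 4358 to 5386 CPM in M0, 953 to 2107 CPM in M2, 7097 to 8220 CPM in M1, 9003 to 9695 CPM with CaP and 5945 to 6646 CPM with SiO2 microrods. The fall in M2 was a log2 fold change of -1.81 (SE 0.23, adjusted p = 4.70e-04 by edgeR). The values with CaP lay above those of all other groups, with a log2 fold change against M0 of 0.94 (SE 0.23, adjusted p = 0.0876) that did not pass the test. *Jam2* was the other gene that fell in M2, from 0.982 to 0.258 CPM, and 1 ligand was called without M0 replicate 2 or 3 or M2 replicate 1 or 3. With CaP microrods 1 ligand gene was called lower, *Thbs1*, on 2, 0 and 0 counts against 8, 6 and 6 counts in M0 (adjusted p = 0.0478, and none called without M0 replicate 1, M0 replicate 3, CaP replicate 2 or CaP replicate 3). With SiO2 microrods 0 ligand genes were called. Among all genes 0.654% were called with CaP and 0.264% with SiO2 microrods. *Jam2*, and *Thbs1* with CaP, lie outside the naming rule and were chosen after their values were seen.

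Of 34 genes that signal below integrins 31 were tested, and 6 rose and 1 fell in M1 (median log2 fold change 0.28), beside 9.7% and 4.37% of all genes. *Rac2*, a small GTPase of leukocytes that acts on actin, was at 108, 229 and 174 CPM in M0 and 387, 658 and 721 CPM in M1 (log2 fold change 1.79, SE 0.28, adjusted p = 8.02e-04 by edgeR). *Syk*, a tyrosine kinase downstream of β2 integrins, rose from 12.3 to 25.7 CPM (1.09, SE 0.21, adjusted p = 0.00375). *Dock1*, a guanine exchange factor for Rac used in engulfment, fell from 68.8 to 25.7 CPM (-1.42, SE 0.32, adjusted p = 0.00928, and 0.0510 and 0.0502 without M1 replicate 2 and M1 replicate 3). In M2 1 rose and 0 fell, beside 2% and 2.13% of all genes. The gene that rose was *Lpxn* (leupaxin, a paxillin relative), from 79.4 to 207 CPM (1.38, SE 0.19, adjusted p = 7.30e-04). Without M2 replicate 2 the number of signalling genes called in M2 was 5, and without M0 replicate 2 it was 2.

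The microrods changed 1 gene of this list each, the same one, beside 0.654% of all genes with CaP and 0.264% with SiO2. *Lims2*, which encodes PINCH-2, an adaptor that binds integrin-linked kinase, was at 7.35, 7.48 and 5.33 CPM in M0 and 7.64, 5.00 and 6.10 CPM in M2. It was at 25.6, 28.2 and 34.4 CPM with CaP, at 32.3, 31.3 and 26.7 CPM with SiO2 microrods and at 15.6, 28.2 and 28.0 CPM in M1. The M0 and M2 libraries lay below the 9 others without overlap. The log2 fold change was 2.11 with CaP (SE 0.25, adjusted p = 9.90e-04 by edgeR), 2.14 with SiO2 microrods (SE 0.25, adjusted p = 0.00303) and 1.81 in M1 (SE 0.25, adjusted p = 2.66e-04), and the 3 calls for *Lims2* held in every setting tried.

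Of 24 genes of integrin activation, the talin, kindlin and Rap1 machinery, 19 were tested, and 0 were called in M1, with CaP or with SiO2 microrods. Among all genes 14.1%, 0.654% and 0.264% were called there. In M2 1 rose and 2 fell, beside 2% and 2.13% of all genes. *Rapgef2*, an exchange factor for Rap1, fell from 6.18 to 2.20 CPM (log2 fold change -1.59, SE 0.28, adjusted p = 0.00506 by edgeR, and 0.0562 without M2 replicate 3), and *Fyb*, an adaptor that links immune receptors to integrins, from 181 to 112 CPM (-0.70, SE 0.14, adjusted p = 0.0122, a call lost without M0 replicate 1 or M2 replicate 1). *Rasgrp4* rose from 0.712 to 4.61 CPM, named after its values were seen.

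Of 21 membrane partners of integrins 20 were tested, and 3 rose and 0 fell in M1, close to the 14.1% called among all genes. In M2 1 rose and 2 fell, beside 2% and 2.13% of all genes. With either microrod 0 were called, beside 0.654% of all genes with CaP and 0.264% with SiO2. *Cd47*, an integrin-associated protein and the ligand of SIRPα, rose in M1 from 63.9 to 132 CPM (log2 fold change 1.05, SE 0.13, adjusted p = 1.17e-04 by edgeR), and *Slc3a2* (CD98), which binds β1 tails, from 289 to 485 CPM (0.74, SE 0.17, adjusted p = 0.00888). *Adam8* rose from 52.1 to 106 CPM (adjusted p = 0.0457, a call lost in 5 of the 6 fits without 1 library). In M2 *Plaur*, the urokinase receptor, fell from 322 to 191 CPM (-0.75, SE 0.14, adjusted p = 0.00736), *Cd9* from 468 to 290 CPM (adjusted p = 0.0426), and the tetraspanin *Cd151*, a partner of α6 integrins, rose from 5.98 to 17.3 CPM (adjusted p = 0.0305). The calls for *Cd9* and *Cd151* were each lost in 4 of the 6 fits without 1 library, and without M0 replicate 2, M2 replicate 1 or M2 replicate 3 the partners called in M2 numbered 1.

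Between CaP and SiO2 microrods 0 genes were called in any of these lists, beside 0.018% of all genes. Between M1 and M2, 6 ligands were higher and 2 lower in M1, 8 signalling genes higher and 2 lower, 4 partners higher and 2 lower, 2 activation genes higher and 1 lower, and 1 other subunit in each direction, beside 10.6% higher and 5.46% lower among all genes. *Spp1* and *Fn1* were higher in M1 than in M2 by log2 fold changes of 2.44 (adjusted p = 7.47e-06 by edgeR) and 2.57 (adjusted p = 1.53e-04), and *Thbs1* was at 5.76 against 0.0466 CPM. *Mfge8*, the bridge between αv integrins and dying cells, was lower in M1, at 33.6 against 99.8 CPM (-1.57, adjusted p = 0.0289, a call lost in 4 of the 6 fits without 1 library). Among the signalling genes *Lpxn* (103 against 207 CPM, adjusted p = 0.00202) and the focal adhesion protein *Zyx* (-1.25, adjusted p = 0.0120) were lower in M1. The call for *Zyx* was lost in 2 of the 6 fits without 1 library. *Lims2* and *Syk* were higher in M1 by 1.92 and 1.25. *Fyb* and *Rapgef2* were higher in M1 by 1.12 and 1.47, as were the partners *Plaur* (1.03), *Cd47* (0.90) and *Cd63* (0.73). The tetraspanins *Cd81* (-0.73, adjusted p = 0.0224 by edgeR) and *Cd151* (-1.22, adjusted p = 0.0402) were lower. The call for *Cd81* was lost in 3 of the 6 fits without 1 library, and that for *Cd151* in 5. *Itgax* was lower in M1 than in M2 (-1.14, adjusted p = 0.0166) and was named after its values were seen.

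The 3 members with the widest range of group means were *Itgal*, *Itga5* and *Itga6*. Likeness of pattern was measured as the root mean square difference of log2 CPM over the 15 libraries, each gene centred on its own mean, among 10338 genes with a mean of at least 5 CPM. Nearest to *Itga5* were *Ikbke* (0.20), *Nfe2l1* (0.26) and *Rab11fip1* (0.26). Nearest to *Itga6* were *Asb4* (0.27), *Ssh2* (0.30) and *Mef2a* (0.31), and nearest to *Itgal* were *Rassf4* (0.39), *Filip1l* (0.45) and *Cdk2ap2* (0.45), which follow it less closely.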

How the data were processed

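The authors made Smart-seq2 libraries, without molecular identifiers, from MH-S cells, sequenced them as paired ends, aligned and quantified the reads with STAR and Salmon on GRCm39, and deposited 1 table of whole-number counts per Ensembl gene for 15 libraries, with no normalization or filter. Salmon estimates counts, so these may be rounded estimates. Each column carried the name of 1 sample, and 0 columns were left unused.

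Symbols, summed exon length and GC content came from GENCODE M21 and its name table (51487 of 78317 identifiers had a symbol, and 90.7% of genes tested a GC content), and promoters from RefSeq on GRCm38.p6. The files use another build, so no coordinates of theirs are given.

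These counts entered edgeR 4.0.16 (R 4.3.3), all 15 libraries together, after filterByExpr by group and TMM scaling, with the quasi-likelihood test and Benjamini-Hochberg adjustment over 16654 genes. Calls needed an adjusted p under 0.05 and a log2 fold change over 0.5 in size, as in the study, which used DESeq2. A single count was worth 0.0143 CPM in the deepest library (M2 replicate 3) and 0.132 CPM in M2 replicate 2. Permuting 3 libraries against 3 exactly gives no two-sided p under 0.1, so single values were not tested that way. Intervals are the estimate and its standard error at 95%. The script was tested on simulated data. Replicates of a group differed by more than sampling noise in every pair.

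The replicate numbers of M0 and M1 pair the libraries by the data alone (correlations of deviations from the group means 0.29, 0.27 and 0.21, each the highest of its library). In the other comparisons the correlations of libraries with the same number ran from -0.70 to 0.60, with negative values in each. Whether libraries with different numbers matched better was examined for M0 and M1 alone. Alternatives were DESeq2 1.42.0, its size factors in edgeR, no filter, 10 counts in every library, a replicate block, thinned counts, the 9 libraries without polarized cells, M0 replicate 3, M2 replicate 2 and SiO2 replicate 2 left out together, and each library left out. The legacy quasi-likelihood, the GC offset and fits of the M0 and M1 libraries alone were added after seeing the data.

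The members and the gene lists were chosen with earlier results of these data known. Named are all members, in each list and comparison up to 3 called genes per direction with the smallest p and at least 5 CPM on average in 1 of the groups, and the 3 genes nearest in pattern to the 3 members with the widest range. A gene that this rule names is not reported here.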

Additional observations from a re-analysis of the deposited data

How the results depend on the processing

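No member that was called changed its direction in any of 208 refits. Of 950 refits of single members against M0 or between groups, 881 stayed on the same side of the threshold, 60 lost a call, 9 gained one and 0 reversed. In M1 against M0 the number of members called was 5 and ranged from 3 to 6 without each library in turn (3 without M0 replicate 1, M1 replicate 2 or M1 replicate 3), and was 5 with the replicate block and 6 with the block in the M0 and M1 libraries alone. In M2 against M0 it was 3, ranged from 1 to 3 (1 without M2 replicate 1 or M2 replicate 3) and was 3 with the block. With CaP microrods against M0 it was 2 and became 0 with the replicate block, with the legacy quasi-likelihood, with the GC offset, in the 9 libraries alone and with 3 libraries left out together, 1 with thinned counts and 0 to 1 without each library. With SiO2 microrods against M0 it was 1 and became 0 with the replicate block, with the GC offset, in the 9 libraries alone, with 3 libraries left out together and without any 1 library (0 to 0). In M1 against M2 it was 2 and became 1 without a filter, with the legacy quasi-likelihood, with thinned counts and with the GC offset, and 1 to 2 without each library. Between CaP and SiO2 it was 0 in all settings. The cause of these changes was not tested. The log2 fold change of *Itgal* stayed between -1.54 and -1.17 with CaP and between -1.74 and -1.32 with SiO2 microrods in all settings. Outside M0 and M1 some libraries with the same replicate number had negative correlations in each comparison, and other pairings were not examined. With the longest transcript as length, the levels in M0 were 0.861 CPM per kb for *Itgal*, 1.32 for *Itga4*, 8.74 for *Itga6*, 1.62 for *Itgav* and 5.31 for *Itgb5*. Over all genes, DESeq2 called 461 with CaP and 130 with SiO2 against 109 and 44 of edgeR, and without a filter edgeR called 968 and 205. Among the other settings these counts were 59 and 19 with the replicate block, 48 and 24 with thinned counts, 55 and 23 with the GC offset, 68 and 10 in the 9 libraries alone and 65 and 15 with the 3 libraries left out, and the legacy quasi-likelihood called 59 with CaP. Between CaP and SiO2 the count of 3 became 17 with DESeq2, 104 without a filter and 5 with thinned counts. In M2 against M0 the count of 687 became 1141 without a filter and 456 with thinned counts, in M1 against M2 the count of 2679 became 4407 without a filter and 5264 with the 3 libraries left out, and in M1 against M0 the count of 2342 became 3610 with these left out. Of 575 refits of named list genes 58 lost the call and 0 reversed. Counts of 23 to 78 limit the precision of *Itgal* in the microrod libraries.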
